A study of Mus musculus with 2 samples.

Results

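The T cell receptor (TCR) and CD28 signalling genes were followed in mouse regulatory T cells (Tregs) with and without Hopx, a homeodomain-only cofactor that does not bind DNA itself. The set holds 44 genes chosen by name, of which 43 were measured here by 101 probe sets; the remaining gene, Lck, has no probe set under its symbol in the annotation used and was not analysed. They stand against 18193 genes with probe sets of 1 symbol. Expression was measured on 2 single-colour Affymetrix 3' arrays of total RNA. The Hopx-sufficient array and the Hopx-deficient array (labelled Hopx-/-) each held CD25+ Foxp3+ Tregs that dendritic cells had induced in vivo, taken ex vivo after immunization and purified by flow cytometry. Immunization and the sort are shared by both groups. Mouse strain, age, the antigen, the part of Hopx that was deleted and the number of mice per array are not given in the sources used here.

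The TCR has no enzyme of its own. When it meets antigen, the CD3 and zeta chains are phosphorylated by Src-family kinases, Zap70 docks on them, and the adaptors Lat and Lcp2 gather phospholipase C, Vav1 and the Ras activators. From there calcium and calcineurin drive NFAT into the nucleus, while protein kinase C theta (Prkcq) drives Bcl10 and Malt1 towards NF-kB. CD28 and ICOS add a second signal, which Tregs need for their formation and upkeep, and phosphatases and inhibitory adaptors set the threshold.

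Every value is a difference on the log2 scale, Hopx-deficient minus Hopx-sufficient, averaged over the probe sets of a gene; base 2 is assumed. The authors centred each probe set on the mean of both arrays, so the table lists no expression level. The steps between values bound the signal of some probe sets roughly; whether a gene was detected, or which of 2 genes was expressed more, cannot be given. The value of a gene on the Hopx-sufficient array is the mirror image of that on the Hopx-deficient array. Each genotype has 1 array, so the differences carry no replicate error and no test was possible. A threshold of 1.2-fold (0.26 on the log2 scale), with 1.5-fold beside it, is a rule of size. The spread between probe sets of the same gene gives a rough scale for a single value: its within-gene standard deviation (SD) was 0.19 in the 30 members with 2 or more probe sets and 0.18 over all 9010 such genes.

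Hopx checks the labels: it was lower on the Hopx-deficient array by both probe sets, at -4.87 and -5.44. The sort markers differed by 0.28 (Foxp3, 1 probe set) and -0.06 (Il2ra, 2 probe sets, -0.19 and 0.08). Of the fixed T cell markers outside the set 7 were measured, with a median of 0.14. They ran from Tcra, a TCR alpha chain gene, at -0.37 to Cd5 at 0.32. Of the 7, 5 (71.4%) were higher, against 50.1% of all genes, and Cd5 and Skap1 are also counted among the other pathway genes below. In these bulk samples, fewer cells of a type and less RNA per cell cannot be told apart.

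The promoters of 3 members that lay above 1.2-fold and of a neighbour, Cd3d, are shown because the members differed together and because Cd3d and Cd3g start 1355 bases apart on opposite strands. Each sequence is the 250 bases before the annotated start, 5′ to 3′ on the strand of the gene (RefSeq, GRCm38.p6); capitals mark matches to a RUNX motif. The windows are chr9:44981536-44981785 (plus strand) for Cd3d, chr9:44980432-44980681 (minus) for Cd3g, chr3:103860027-103860276 (plus) for the downstream of 2 Ptpn22 starts, chosen for its RUNX matches since the window of the upstream start held no motif searched, and chr16:48772063-48772312 (minus) for Trat1.
Cd3d: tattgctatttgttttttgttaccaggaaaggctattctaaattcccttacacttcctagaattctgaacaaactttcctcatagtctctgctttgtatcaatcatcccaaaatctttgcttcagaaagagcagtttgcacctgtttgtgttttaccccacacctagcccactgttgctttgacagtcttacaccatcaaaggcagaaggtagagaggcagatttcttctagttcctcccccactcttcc
Cd3g: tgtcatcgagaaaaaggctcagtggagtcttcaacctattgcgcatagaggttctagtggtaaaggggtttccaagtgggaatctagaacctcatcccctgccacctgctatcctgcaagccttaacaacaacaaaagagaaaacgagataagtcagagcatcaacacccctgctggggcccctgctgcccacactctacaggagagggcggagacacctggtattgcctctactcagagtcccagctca
Ptpn22: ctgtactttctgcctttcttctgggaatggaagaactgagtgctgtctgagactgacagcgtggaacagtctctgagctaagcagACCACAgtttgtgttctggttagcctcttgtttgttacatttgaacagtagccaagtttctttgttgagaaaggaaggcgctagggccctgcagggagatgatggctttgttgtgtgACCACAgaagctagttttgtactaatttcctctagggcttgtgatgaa
Trat1: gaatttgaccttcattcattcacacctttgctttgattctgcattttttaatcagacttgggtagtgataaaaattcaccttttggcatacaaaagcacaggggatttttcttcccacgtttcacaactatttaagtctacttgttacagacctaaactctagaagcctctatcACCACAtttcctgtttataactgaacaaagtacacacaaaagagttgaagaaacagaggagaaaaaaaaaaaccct

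Motifs were searched on both strands in the same 250 bases of 32851 promoters, 47 of which belong to 34 members, Lck included. RUNX (TGTGGT) was found in 14.9% of the member promoters and 14.0% of all promoters. The shares were 8.51% against 13.6% for ETS (CGGAAG), 17.0% against 20.4% for NFAT (GGAAAA) and 2.13% against 6.75% for AP-1 (TGANTCA), which matched Rcan1 alone among the members. ETS and NFAT letters can overlap at GGAA. The CArG box, bound by serum response factor, was in 0 member promoters and 1.47% of all. No motif was thus found in a clearly larger share of member promoters than of all promoters, and the 250 bases shown for Cd3d and Cd3g held none of the 5 motifs.

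Across the set, 32 of 43 members (74.4%) were higher in Hopx-deficient cells, against 50.1% of all genes. The median difference was 0.14, against 0.00 over all genes, and the values ran from -0.22 (Rcan1) to 0.48 (Ptpn22). Of the members 10 (23.3%) were at least 1.2-fold higher, against 7.10% of all genes, and 0 were at least 1.2-fold lower, against 10.1% of all genes. At 1.5-fold there were 0 members on either side, against 0.297% of all genes higher and 1.31% lower. The differences were small: 33 members (76.7%) stayed within 1.2-fold, against 82.8% of all genes.

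**Figure D1:**
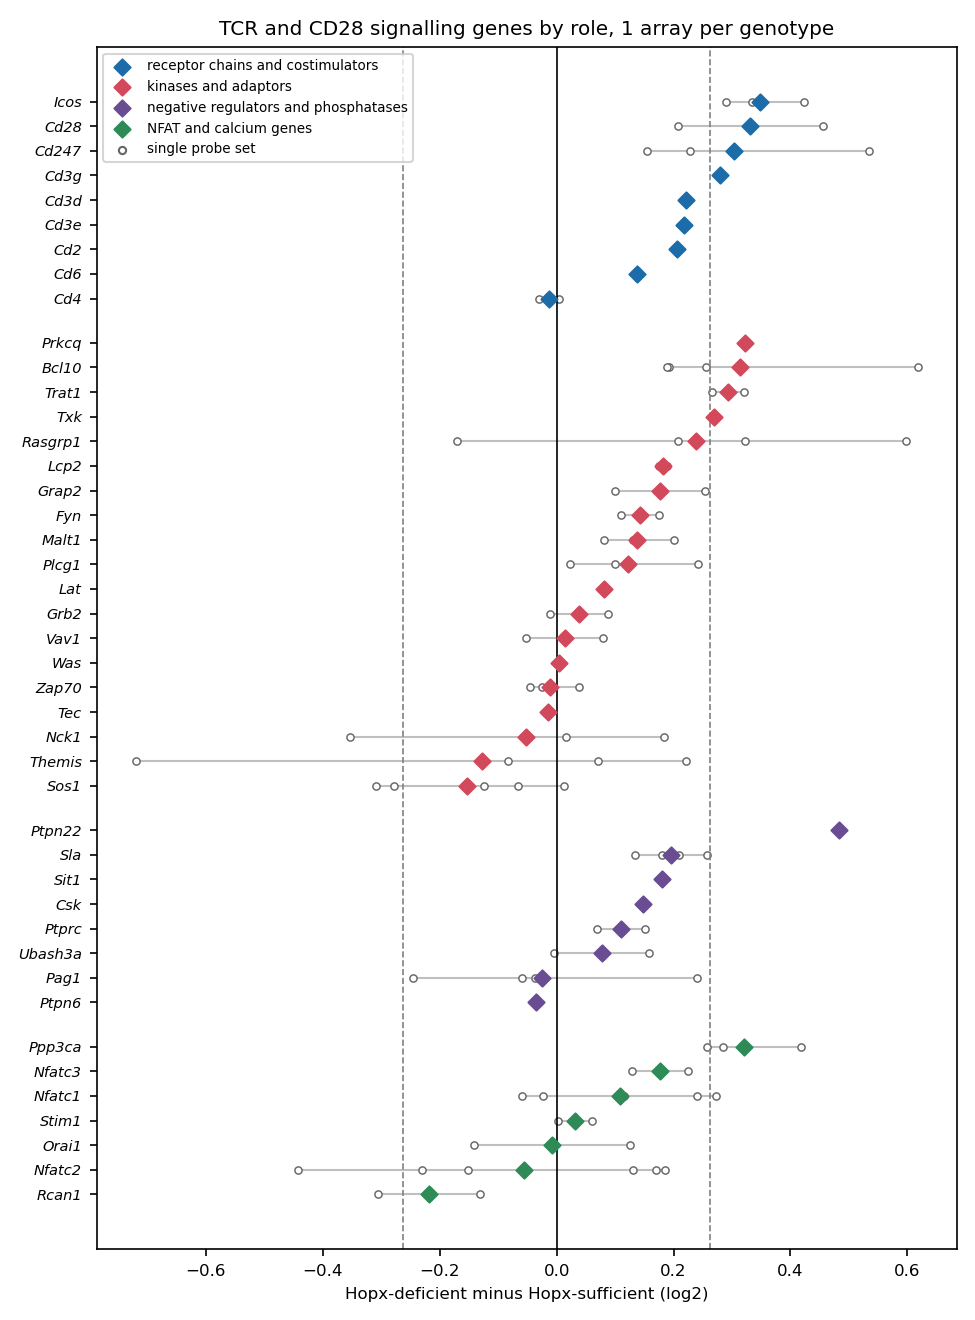
Difference between the 2 arrays (x axis, log2) for each of the 43 measured members (y axis), grouped by role; diamonds are gene means, open circles single probe sets, grey lines their range, dashed lines 1.2-fold. Of the 9 receptor genes, 8 lie to the right of 0 and Cd4 lies on it, while Sos1, Themis and Rcan1 are the lowest genes.

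The receptor chains and costimulators were the role with the highest median, 0.22. Of these 9 genes, 8 (88.9%) were higher, against 50.1% of all genes, and 4 (44.4%) at least 1.2-fold, against 7.10%. Icos, the inducible costimulator, stood at -0.18 on the Hopx-sufficient array and 0.18 on the Hopx-deficient array, a 1.27-fold difference that its 3 probe sets shared (0.29, 0.33 and 0.42). Cd28, the main costimulatory receptor, stood at -0.17 and 0.17, 1.26-fold higher, with probe sets at 0.21 and 0.46. Cd28 and Icos are neighbours in the genome with Ctla4 between them, a Treg inhibitory receptor gene that competes for the CD28 ligands; Ctla4, no member, differed by 0.33 (1 probe set). The 3 adjacent genes thus gave nearly the same value.

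The invariant chains of the TCR complex were all higher. Cd247, encoding the zeta chain, which carries most of the activation motifs, stood at -0.16 and 0.16 (1.23-fold, 4 probe sets between 0.16 and 0.53). Cd3g stood at -0.14 and 0.14, 1.21-fold higher by 1 probe set. Cd3d (0.22) and Cd3e (0.22), its neighbours, were close behind and below 1.2-fold. Each of the CD3 genes was measured by 1 probe set, so their agreement is between genes and not within them. Cd2, an adhesion receptor that supports TCR signals, differed by 0.21 and Cd6, a scavenger-family receptor of T cells, by 0.14. Cd4, the coreceptor that brings Lck to the TCR and binds MHC class II, differed by -0.01, with probe sets at -0.03 and 0.00. Cd4 was the only member of this role that was not higher.

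Among kinases and adaptors, 14 of 19 (73.7%) were higher, against 50.1% of all genes, and the median was 0.12. At least 1.2-fold higher were 4 (21.1%), against 7.10% of all genes. The values were not even along the pathway. The proximal kinase Zap70 differed by -0.01, its 3 probe sets lying between -0.05 and 0.04, and the adaptor Lat by 0.08. The Src-family kinase Fyn differed by 0.14. Of the TEC-family kinases, which activate phospholipase C, Txk was 1.21-fold higher (1 probe set) and Tec differed by -0.02 (1 probe set).

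The adaptors and partners named in this paragraph ran from 0.00 to 0.29. Others of this role lay outside this range and are given below. Lcp2, the scaffold known as SLP76, differed by 0.18 and Grap2, which links it to Lat, by 0.18, each with both probe sets higher. Plcg1, the phospholipase itself, differed by 0.12 (3 probe sets between 0.02 and 0.24). Trat1, a transmembrane adaptor that associates with the TCR complex, stood at -0.15 and 0.15, 1.23-fold higher, with probe sets at 0.27 and 0.32. Vav1 differed by 0.01, the adaptor Grb2 by 0.04 and Was, the actin regulator mutated in Wiskott-Aldrich syndrome, by 0.00.

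The 3 members of the protein kinase C branch, Prkcq, Bcl10 and Malt1, were higher. Genes further down this branch that are no members went both ways. Traf6 (-0.16) and Map3k7 (-0.12) were lower, and Ikbkb (0.12) and Ikbkg (0.02) higher. The 5 probe sets of Traf6 ran from -0.52 to 0.01, and their median was -0.05. Prkcq stood at -0.16 and 0.16, 1.25-fold higher by 1 probe set. Bcl10 also stood at -0.16 and 0.16, 1.24-fold higher, but by unequal probe sets: 0.19, 0.19, 0.26 and 0.62. Malt1, the paracaspase that joins Bcl10, differed by 0.14, with its 3 probe sets at 0.08, 0.13 and 0.20. Rasgrp1, which opens the Ras branch from diacylglycerol, differed by 0.24, yet its 4 probe sets ran from -0.17 to 0.60, a spread wider than the difference.

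The 5 kinases and adaptors on the lower side were Sos1, Themis, Nck1, Tec and Zap70. Sos1, a Ras exchange factor, differed by -0.15, and 4 of its 5 probe sets were lower (lowest -0.31, highest 0.01). Themis, a T cell adaptor known from thymocyte selection, differed by -0.13, a value set by 1 probe set at -0.72; the others were at -0.08, 0.07 and 0.22. Nck1, an adaptor to the actin machinery, differed by -0.05, with probe sets at -0.35, 0.02 and 0.18. For Themis and Nck1 the SD between probe sets, 0.41 and 0.28, was larger than the difference, so their probe sets settle no direction. The same held for Cd4, Zap70, Vav1, Grb2, Rasgrp1, Pag1, Ubash3a, Nfatc1, Nfatc2, Stim1 and Orai1. Of these, Vav1, Grb2, Rasgrp1, Ubash3a, Nfatc1 and Stim1 are among the 32 members counted as higher. With 1 array per genotype, probe sets that agree do not settle a direction either.

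Negative regulators did not go the other way. Of 8 genes, 6 were higher, against 50.1% of all genes, and the median was 0.13. At least 1.2-fold higher was 1 of the 8, Ptpn22, against 7.10% of all genes. Ptpn22, a phosphatase that removes the activating phosphates of Lck and Zap70, had the largest difference of any member: it stood at -0.25 and 0.25, 1.40-fold higher, but was measured by 1 probe set. Only 0.775% of all genes were as high or higher. Csk, the kinase that locks Src-family kinases and works with Ptpn22, differed by 0.15, and Pag1, the membrane anchor of Csk, by -0.03, with 4 probe sets from -0.25 to 0.24.

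The other regulators lay within 1.2-fold. Sla, an adaptor that promotes turnover of the TCR complex, differed by 0.19, its 4 probe sets lying between 0.13 and 0.26. Sit1, an inhibitory transmembrane adaptor, differed by 0.18 (1 probe set) and Ubash3a, which dampens TCR signals, by 0.08. Ptprc, the phosphatase CD45, which both activates and restrains Lck, differed by 0.11. Ptpn6, the phosphatase SHP1, differed by -0.04, and its 2 probe sets nearly coincided, at -0.03 and -0.04.

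The NFAT and calcium genes had the lowest median of the 4 roles, 0.03. Of 7 genes, 4 (57.1%) were higher, close to the 50.1% of all genes, and 1 (14.3%) at least 1.2-fold, against 7.10%. The difference between roles was not tested. Ppp3ca, the catalytic subunit of calcineurin, stood at -0.16 and 0.16, 1.25-fold higher with all 3 probe sets between 0.26 and 0.42. Rcan1, an inhibitor of calcineurin whose transcription NFAT itself induces, had the lowest value of the set: it stood at 0.11 on the Hopx-sufficient array and -0.11 on the Hopx-deficient array, 1.16-fold lower, with probe sets at -0.13 and -0.31. The phosphatase subunit and its inhibitor thus lay at opposite ends of this role.

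The NFAT factors themselves were mixed. Nfatc3 differed by 0.18 with both probe sets higher. Nfatc1 differed by 0.11, and its 5 probe sets ran from -0.06 to 0.27. Nfatc2, the main NFAT of resting T cells, differed by -0.06; 3 of its 6 probe sets were higher and 3 lower, from -0.44 to 0.19. Stim1, the calcium sensor of the endoplasmic reticulum, differed by 0.03, and Orai1, the calcium channel it opens, by -0.01, with probe sets at -0.14 and 0.12. Without probe sets whose suffix marks shared transcripts or possible cross-hybridization, 5 of the 7 genes were left and the median of this role was -0.0037, so it has no stable sign.

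Probe sets of 1 gene gave the available check within the set. In 15 of the 30 members with 2 or more probe sets (50.0%) all probe sets were higher, against 23.4% of such genes over the whole table. In 2, Ptpn6 and Rcan1, all were lower, and in 13 they fell on both sides. The shares of these outcomes over the whole table were not computed, so neither count can be called unusual or usual. Over single probe sets, 73 of 101 (72.3%) were higher, against 50.0% of all probe sets with 1 symbol. The 13 members with 1 probe set had a median of 0.21 and the 30 with more had 0.11, so the genes without an internal check contribute the larger values. For 0 of the 101 member probe sets did the value steps of the deposited numbers show a mean signal below 4 on the log scale, against 5.91% of all probe sets with 1 symbol; 5 member probe sets lay too near 0 for this to be read. Some member probe sets had the next coarser steps, which set a higher bound on the signal. Lower among these were Themis (-0.72), Nck1 (-0.35), Sos1 (-0.28 and -0.12), Pag1 (-0.25), Nfatc2 (-0.23), Orai1 (-0.14), Vav1 (-0.05) and Nfatc1 (-0.02). Higher among them were other probe sets of Pag1 (0.24), Themis (0.07) and Sos1 (0.01), and Malt1 (0.20). The share of all probe sets with these steps was not computed.

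**Figure D2:**
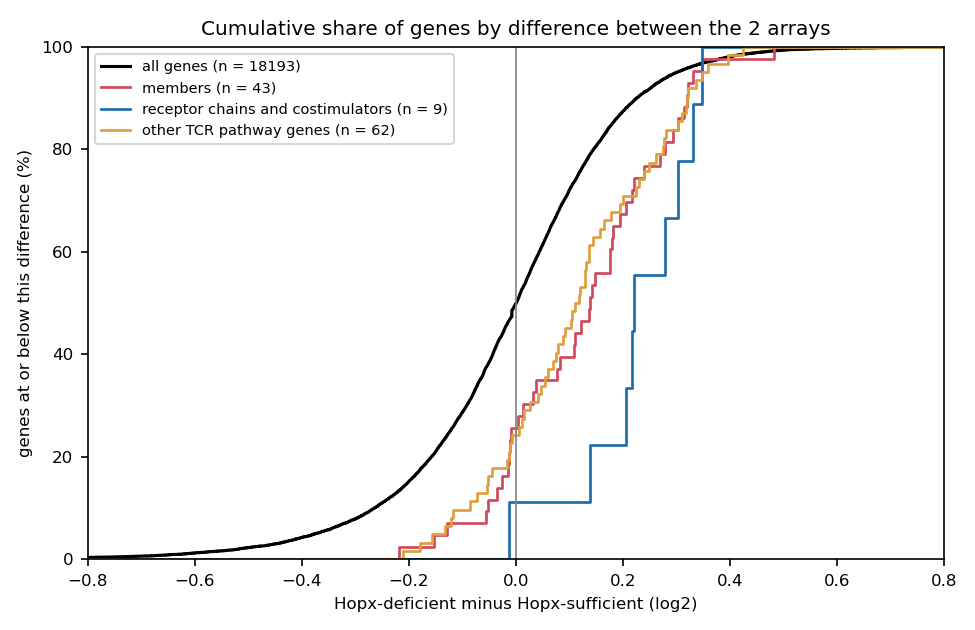
Cumulative share of genes (y axis, percent) at or below each difference between the 2 arrays (x axis, log2) for all 18193 genes, the 43 members, the 9 receptor genes and 62 other genes of the pathway. The curves of the members and of the other pathway genes run close together and to the right of all genes, and that of the receptor genes lies furthest right over most of its range.

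Genes of the same pathway outside the set gave a similar picture. Of 73 listed, 62 were measured, and 47 of these (75.8%) were higher, against 50.1% of all genes. At least 1.2-fold higher were 13 (21.0%), against 7.10% of all genes, and 0 were at least 1.2-fold lower, against 10.1%. The median was 0.11. The 5 highest were Rasa1 (0.42), a Ras-inactivating protein gene, Dgka (0.40), a kinase that removes diacylglycerol, Itpkb (0.36), an inositol phosphate kinase gene, Rhoh (0.35), a haematopoietic GTPase gene needed for Zap70 function, and Pik3cd (0.34), a catalytic subunit of PI3 kinase. Of these 5, Rasa1, Dgka and Itpkb act to end or modulate second messengers or Ras activity. The 5 lowest were Ptpn2 (-0.21), a phosphatase gene, the kinase gene Akt1 (-0.18), Traf6 (-0.16), which acts downstream of Malt1, the CD8 coreceptor gene Cd8a (-0.13) and Map4k1 (-0.12), a kinase that restrains Lcp2. These values are smaller in size than those of the highest 5.

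Genes that TCR signals induce were not higher as a group. Of 15, 5 (33.3%) were higher, against 50.1% of all genes, and 10 were lower. At least 1.2-fold higher were 2 (13.3%), against 7.10% of all genes, and 2 (13.3%) were at least 1.2-fold lower, against 10.1%. Their median was -0.08, against 0.14 for the signalling components. The 3 lowest were Irf4 (-0.41), a transcription factor gene of effector Tregs, Il2 (-0.40), the growth factor gene that Foxp3 represses, and Nfkbid (-0.24), a nuclear inhibitor of the NF-kB family. The 3 highest were all Egr factors: Egr2 at 0.39, Egr1 at 0.27 and Egr3 at 0.18. The Nr4a genes, often used to read TCR signal strength, were lower by less than 1.2-fold (Nr4a1 -0.08, Nr4a2 -0.13, Nr4a3 -0.16). Nr4a1 has 1 probe set, the 6 of Nr4a2 ran from -0.49 to 0.26 and the 3 of Nr4a3 from -0.23 to -0.11. TCR signal strength itself was not tested. The induced genes thus went both ways while the components mostly went one way. The difference between the 2 lists was not tested, and Rcan1, which NFAT induces, was counted as a component.

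Markers of other cells moved between the arrays too. Macrophage markers were higher in 9 of 12 cases (median 0.35, from Lyz2 at -0.38 to Hmox1 at 0.93), and Treg markers in 5 of 6 (median 0.31). For comparison, 50.1% of all genes were higher. B cell markers were higher in 0 of 7 (median -0.21, from -0.48 to -0.01) and dendritic cell markers in 1 of 8 (median -0.13, from -0.38 to 0.27). The 2 dendritic cell markers at least 1.2-fold lower were MHC class II genes, H2-Ab1 (-0.38) and H2-Aa (-0.34). The others ran from Siglech at -0.20 to Xcr1 at 0.27. The 7 markers of CD8 T and NK cells had their median at 0.01 and the 4 neutrophil markers at -0.04. Since no level is kept, it cannot be said which of these markers were at background. Several members, among them Ptprc, Ptpn6, Vav1, Was and Csk, are also expressed by macrophages and B cells. Of members typical of T cells, the CD3 chains, Cd28, Icos and Trat1 were higher. Lat (0.08) was higher by less, and Zap70 (-0.01) and Themis (-0.13) were on the lower side. Of the 7 T cell markers measured, Thy1 (-0.05) and Tcra (-0.37) were lower. The other 5 were higher: Cd5 (0.32), Cd27 (0.29), Bcl11b (0.27), Lef1 (0.14) and Skap1 (0.08). The part of the makeup of the sorts in the members' differences was not tested.

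**Figure D3:**
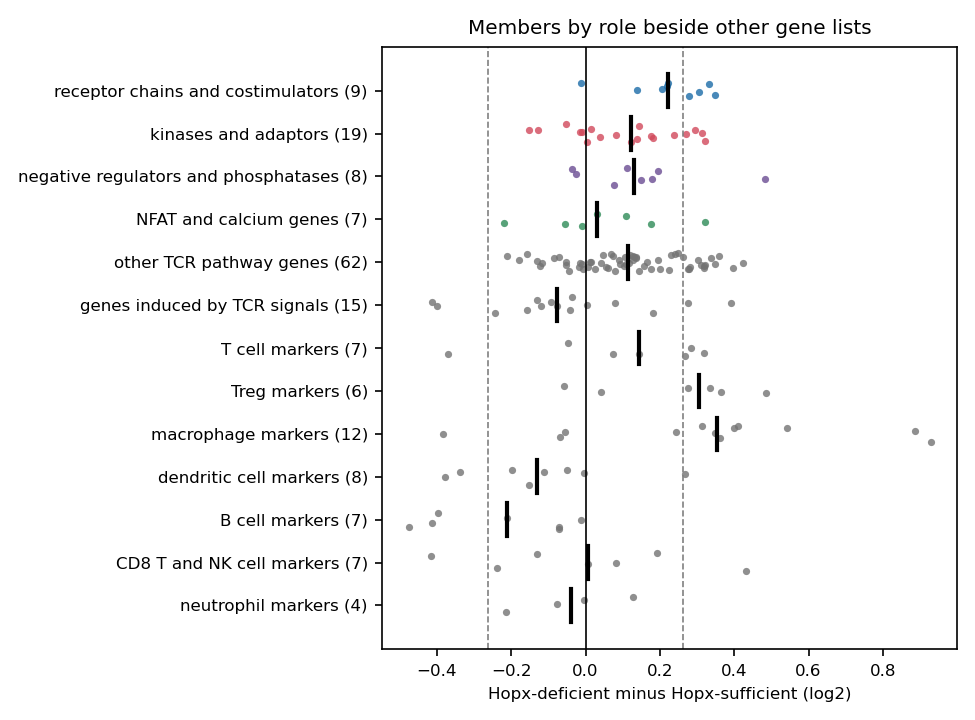
Difference between the 2 arrays (x axis, log2) of each gene in the 4 roles of the set and in 9 other lists (y axis, with the number of measured genes); points are genes, black bars medians, dashed lines 1.2-fold. The median of the receptor genes (0.22) lies below those of the Treg (0.31) and macrophage markers (0.35), and the medians of B cell and dendritic cell markers lie below 0.

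The 18 hybridization spike-in probe sets, which carry no mouse sequence, ran from -0.22 to 0.01 with a median of -0.12. The median of the members has the opposite sign and about the same size as that of the spike-ins. Above the highest spike-in probe set lay 31 of 43 members (72.1%), against 48.4% of all genes. Since that probe set is close to 0, this nearly repeats the count above 0 (32 members, against 50.1% of all genes). How a technical difference between the arrays bears on the members was not tested.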

How the data were processed

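The authors deposited log2-type values for 45101 probe sets, from which each row's mean over both arrays had been subtracted: in the table the 2 values of a row sum to at most 1e-06. The summarisation, the normalization and the log base are not given in the sources used here. Probe sets were named from the platform annotation of 2016, with symbols updated by gene ID (34741 of 34945 probe sets with 1 symbol were found). Those with several symbols (932), with none (9160) and 64 controls stayed out of gene values. Differences were centred on their median over probe sets with 1 symbol (0.0075) and averaged by gene. Array values printed singly are as deposited. The gene averaging was tested on simulated data. Python 3.11.15, numpy 2.4.6, pandas 2.3.3 and matplotlib 3.10.9 were used.

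The members and lists were chosen with earlier results of these data known. All members are named; for other pathway genes the 5 highest and 5 lowest, and for induced genes the 3 highest and 3 lowest. The Nr4a genes, Map3k7, Ikbkb, Ikbkg, Thy1, Ctla4 and the motifs were picked after values were seen. The alternatives were no centring, other ways to combine probe sets, removal of probe sets by suffix or by value steps, natural logs, 1.5-fold, another place for Ptprc, and platform symbols as given; 2 more were added after seeing the data.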

Additional observations from a re-analysis of the deposited data

How the results depend on the processing

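Of 61 comparisons of a count or median with an alternative, 51 gave the same direction and a similar size. Some of these could hardly come out otherwise, so 51 is no measure of robustness. Natural logs change no sign, which fixed the counts of higher genes, and leaving out the centring moved values by only 0.0075. Where each gene was represented by its most different probe set, the median of all members was 0.18 and that of kinases and adaptors 0.175 (printed before as 0.14 and 0.12), and 5 members were at least 1.2-fold lower instead of 0, while 17.6% of all genes were. Natural logs would give medians of 0.20 for all members, 0.32 for receptor genes and 0.18 for kinases and adaptors, with 16 members at least 1.2-fold higher and 1 lower. At 1.5-fold, 0 members were higher. Without probe sets of suffix x, s or a, which took away 6 members, the NFAT and calcium median was -0.0037 in place of 0.03, and Bcl10 rested on 0.61. The count of higher members was 32 without centring and 33 by the median over probe sets. The median over members with 2 or more probe sets only was 0.11, and without Cd8a and Cd8b1 46 other pathway genes were higher; both were added after seeing the data. Adding probe sets with several symbols was not run, since 0 of them list a member. No paired analysis was possible because there is a single array of either genotype, which also means that no array could be left out. Signal over background is unknown in these centred values. Only the finest value steps were used to leave out dim probe sets. This took out 0 member probe sets, so for the members it changed only the centring and is no check on dim probe sets. The median of all members was then 0.135, with 32 higher. Its comparisons are counted among the 51 above.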
